A study of Mus musculus with 30 samples.

Results

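The genes described here are the matrix metalloproteinases (Mmp) Mmp2, Mmp3, Mmp8, Mmp9, Mmp10, Mmp12, Mmp13 and Mmp14 and the inhibitors Timp1 and Timp3, 10 rows of the 46078 in the table of gene counts, chosen by gene name, with earlier results of these data known. They were followed in colon RNA of 30 mice in 6 groups of 5, 1 library per mouse. All mice were wild-type C57BL/6J, of both sexes, 5 to 10 weeks old at the start. The vehicle group was given saline and sampled at 9 weeks. AOM/DSS mice received 10 mg/kg azoxymethane, a carcinogen, followed by 3 cycles of 2.5% dextran sodium sulfate, which injures the colon lining, and were sampled at 9 weeks or at 15 weeks. Vehicle was not sampled at the later time, and treatment and time cannot be told apart there. The RNA came from the scraped epithelial layer of the colon, which by the study's methods was taken apart from tumors at 15 weeks.

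Matrix metalloproteinases are zinc-dependent enzymes that cut collagens, proteoglycans, elastin and other matrix proteins, and also release or inactivate growth factors and cytokines. Most are secreted as inactive proenzymes by fibroblasts, macrophages, neutrophils and wound-edge epithelium, and are activated by plasmin or by one another. The Timp proteins bind the active site of these enzymes and block it. In the gut, several Mmp genes are known to be switched on by interleukin-1, tumor necrosis factor and oncostatin M during ulceration and repair.

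Counts on genes ran from 9265804 to 30806392 per library. CPM below are counts relative to the TMM-adjusted library size, and tests are edgeR's quasi-likelihood test with Benjamini-Hochberg adjustment over the 16261 genes that passed the filter on low counts. Of the 10 genes, 9 passed that filter, and Mmp8 did not. Epithelial cells dominated all libraries, with Epcam between 1312 and 1862 CPM, while the fibroblast gene Dcn ranged from 0.814 to 202.9 CPM and the smooth muscle gene Myh11 from 0.121 to 1400 CPM. A pair of libraries stood apart. Male vehicle replicate 1 held the highest Myh11 and Dcn, and female 9 weeks replicate 5 held the lowest level in its group of all 6 genes that rose at 9 weeks. Values without them are given beside results that change. In such bulk RNA, more cells of a type and more RNA per cell cannot be told apart.

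Of the members, 5 lie in a row of Mmp genes on chromosome 9, with Mmp13, Mmp12, Mmp3, Mmp10 and Mmp8 all on the plus strand (GRCm38, GENCODE gene models). In order, Mmp13 spans chr9:7272514-7283333, Mmp12 chr9:7344381-7369499, Mmp3 chr9:7445822-7455972, Mmp10 chr9:7502352-7510238 and Mmp8 chr9:7558429-7568486. Mmp2 lies on chromosome 8, Mmp9 on chromosome 2, Mmp14 on chromosome 14, Timp3 on chromosome 10 and Timp1 on chromosome X. The RefSeq table of promoters (GRCm38.p6) held 8 of the 10 members and did not list Mmp2 or Mmp9. The 150 bases before the start site were searched for TGANTCA, the site of the Fos and Jun dimer AP-1, which reads the same on both strands, for TATAAA on both strands and for an NF-kB site, GGG and TTTCC with 2 free bases between them, on both strands. For the members the start site was the earlier of the RefSeq and GENCODE starts, and for all promoters it was the RefSeq start, so the windows are not fully alike. TGANTCA was found in 3 of the 8 promoters (37.5%), those of Mmp3, Mmp10 and Mmp13, against 4.24% of all 32851 promoters in the table. The same 3 promoters held TATAAA, which 7.57% of all promoters hold, and the NF-kB site was in none of the 8 and in 0.925% of all promoters. The promoters of these 3 genes are printed because they share this site and the genes moved together below, and those of the neighbors Mmp12 and Mmp8 because they lack it. Capitals mark TGANTCA, whose first base lies 46 bases before the start site in Mmp3, 63 in Mmp10 and 35 in Mmp13. Such a match describes the letters in this window and is not a measured binding site.
Mmp3 (chr9:7445672-7445821, plus strand): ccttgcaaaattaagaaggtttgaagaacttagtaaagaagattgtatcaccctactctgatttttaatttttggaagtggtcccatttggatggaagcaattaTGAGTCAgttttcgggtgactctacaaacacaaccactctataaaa
Mmp10 (chr9:7502192-7502341, plus strand): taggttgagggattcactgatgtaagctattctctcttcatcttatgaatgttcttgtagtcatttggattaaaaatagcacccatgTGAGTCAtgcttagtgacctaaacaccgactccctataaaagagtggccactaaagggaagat
Mmp13 (chr9:7272364-7272513, plus strand): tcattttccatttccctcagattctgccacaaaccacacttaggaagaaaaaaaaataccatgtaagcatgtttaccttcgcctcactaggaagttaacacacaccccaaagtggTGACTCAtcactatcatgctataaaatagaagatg
Mmp12 (chr9:7344231-7344380, plus strand): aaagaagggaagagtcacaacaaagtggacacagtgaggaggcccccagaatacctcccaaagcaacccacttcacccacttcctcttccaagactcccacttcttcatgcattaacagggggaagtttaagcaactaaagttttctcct
Mmp8 (chr9:7558279-7558428, plus strand): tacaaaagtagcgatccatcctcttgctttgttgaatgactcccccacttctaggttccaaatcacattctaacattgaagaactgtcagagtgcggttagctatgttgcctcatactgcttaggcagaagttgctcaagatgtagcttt

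To see which of these genes responded to the treatment, AOM/DSS at 9 weeks was compared with vehicle at the same time over both sexes. Of the 9 tested, 6 were higher and 0 lower: Mmp3, Mmp9, Mmp10, Mmp12, Mmp13 and Timp1. Over all genes, 16.2% passed in either direction, 9.88% higher and 6.32% lower. The median log2 fold change was 3.29 over the 9 members and -0.02 over all genes tested. Median counts in vehicle were 1 for Mmp3 and Mmp10, 4.5 for Mmp9 and 5 for Mmp12, so these genes could hardly have been called lower. Mmp3 passed the filter mainly through its 9-week libraries. The direction of the calls and the median are therefore descriptions, not a like comparison with all genes. Mmp10 and Mmp3 had the largest changes, while Mmp2, Mmp14 and Timp3 did not pass. All 6 kept their calls when any 1 of the 20 libraries was left out.

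The stromelysins Mmp3 and Mmp10 degrade proteoglycans, fibronectin and basement membrane proteins and activate other proenzymes. Mmp10 was at 0.0704, 0, 0, 0.0442 and 0 CPM in vehicle females and 1.11, 0, 0.0374, 0.104 and 0.112 CPM in vehicle males. At 9 weeks it was at 3.89, 8.57, 2.42, 14.9 and 0.323 CPM in females and 16.3, 6.33, 6.22, 2.33 and 1.74 CPM in males. At 15 weeks the values were 0, 0.158, 0.803, 0 and 3.64 CPM in females and 0.415, 0.612, 0, 0.138 and 6.71 CPM in males. The 9-week and vehicle libraries did not overlap within either sex, and 9 of 10 exceeded the highest vehicle library of either sex. At 15 weeks 2 libraries, replicate 5 of each sex, held most of the signal. In all, 44 reads fell on Mmp10 in vehicle libraries and 1627 at 9 weeks. The rise at 9 weeks was 66.3-fold (log2 fold change 6.05 ± 1.09 SE, edgeR adjusted p = 0.000274), with a log2 fold change of 5.72 to 7.06 when 1 library was left out.

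Mmp3 averaged 0.205 CPM in vehicle, 3.79 CPM at 9 weeks and 0.303 CPM at 15 weeks, against 0.147, 6.31 and 1.25 CPM for Mmp10. Vehicle females held 0.282, 0, 0, 0 and 0 CPM and vehicle males 1.24, 0.0428, 0.0374, 0.38 and 0.0747 CPM. At 9 weeks females held 5.67, 2.54, 2.07, 8.08 and 0 CPM and males 7.73, 3.36, 5.66, 0.952 and 1.87 CPM. At 15 weeks females held 0.0479, 0.105, 0.321, 0 and 0.987 CPM and males 0.0593, 0.449, 0, 0 and 1.06 CPM. Of the 10 libraries at 9 weeks, 8 lay above the highest vehicle library. The others were female replicate 5, at 0, and male replicate 4, below male vehicle replicate 1, and the groups overlapped in both sexes. Mmp3 rose 23.2-fold at 9 weeks (log2 fold change 4.54 ± 0.89 SE, edgeR adjusted p = 0.000684), and its log2 fold change lay between 4.29 and 6.45 when 1 library was left out. The transcripts of Mmp3 and Mmp10 share 137 stretches of 51 bases, 7.82% of those in Mmp3 and 8.19% of those in Mmp10, so that some reads cannot be assigned to one of them with certainty. No other pair of members shared any.

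Among the collagenases, which cut fibrillar collagen across its triple helix, Mmp13 is the main interstitial collagenase of the mouse and Mmp8 is stored in neutrophil granules. Mmp13 was at 0.246, 0.324, 0.037, 0.353 and 0 CPM in vehicle females and 2.6, 0.514, 0.636, 0.518 and 1.49 CPM in vehicle males. At 9 weeks it reached 6.01, 6.63, 3.83, 13.3 and 0.215 CPM in females and 24.2, 8.91, 4.62, 2.36 and 3.26 CPM in males. At 15 weeks it was at 0.192, 1.58, 1.32, 0.357 and 4.44 CPM in females and 0.712, 1.02, 0.121, 0.482 and 6.54 CPM in males. The 24.2 CPM of male 9 weeks replicate 1 was the highest Mmp13 value in the series, and the groups overlapped through female replicate 5 and male vehicle replicate 1. Mmp13 rose 14.5-fold at 9 weeks (log2 fold change 3.85 ± 0.72 SE, edgeR adjusted p = 0.000375).

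Mmp8 was detected almost only at 9 weeks. No read fell on it in any of the 10 vehicle libraries, 96 reads fell on it over the 10 libraries at 9 weeks, and 3 over the 10 at 15 weeks. At 9 weeks it was at 0.254, 0.474, 0.0702, 1.11 and 0 CPM in females and 0.284, 0.917, 0.625, 0.0614 and 0.0694 CPM in males. All males and 4 of 5 females at 9 weeks thus lay above every vehicle library. With a floor of 3 counts per library, which is 0.0976 to 0.32 CPM, the mean at 9 weeks (0.386 ± 0.387 CPM, SD, n = 10) was at least 2.87-fold higher than the vehicle mean. An exact two-sided permutation test, chosen after these values were seen, gave p = 0.00794 for males at 9 weeks against vehicle, the smallest that 5 against 5 allows, and p = 0.0476 for females. For males it only restates the separation above, in which replicates 4 and 5 held 2 counts each, fewer than the floor. Without the filter on low counts, edgeR called Mmp8 higher at 9 weeks (adjusted p = 0.000222), though with no vehicle read a lower call was not possible.

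Macrophage elastase, Mmp12, is secreted by macrophages and cuts elastin. It was at 0.317, 0.0811, 0.037, 0.133 and 0 CPM in vehicle females and 1.37, 0.557, 0.262, 0.0691 and 0.635 CPM in vehicle males. At 9 weeks it was at 3.05, 6.93, 1.4, 16.1 and 0.484 CPM in females and 5.03, 8.17, 2.5, 2.7 and 1.87 CPM in males. At 15 weeks it was at 0, 0.84, 0.722, 0.25 and 0.645 CPM in females and 0.475, 0.367, 0.765, 0.344 and 2.05 CPM in males. Vehicle and 9-week libraries did not overlap within either sex. Mmp12 had the smallest adjusted p of the members at 9 weeks (17.1-fold, log2 fold change 4.10 ± 0.63 SE, edgeR adjusted p = 4.58e-05). Its antisense neighbor Mmp1b, which overlaps its 3′ end, had 0 counts in every library.

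The gelatinases Mmp9 and Mmp2 cut denatured and type IV collagen, and differed here. Mmp9, which neutrophils and macrophages release on activation, was at 0.176, 0.0811, 0.148, 0.177 and 0 CPM in vehicle females and 0.455, 0.471, 0.0374, 0.276 and 0.635 CPM in vehicle males. At 9 weeks it was at 1.27, 2.02, 1.44, 5.4 and 0.0538 CPM in females and 3.51, 2.45, 3.09, 1.69 and 1.15 CPM in males. At 15 weeks it was at 0.144, 0.263, 0.361, 0.0713 and 0.797 CPM in females and 0.237, 0.53, 0.201, 0 and 2.26 CPM in males. All 9-week libraries but female replicate 5 exceeded every vehicle library, and Mmp9 rose 9.81-fold (log2 fold change 3.29 ± 0.62 SE, edgeR adjusted p = 0.000421). Mmp2, a fibroblast product that Mmp14 activates at the cell surface, was at 2.22 to 42.1 CPM in vehicle (median 5.66), at 4.73 to 13.9 CPM at 9 weeks (median 8.80) and at 0.276 to 8.29 CPM at 15 weeks (median 3.43). Its vehicle range enclosed the whole 9-week range, through male vehicle replicate 1 at 42.1 CPM, and its log2 fold change at 9 weeks was 0.25 ± 0.41 SE (edgeR adjusted p = 0.742). Within the sexes it was 1.24 ± 0.60 SE in females, where 4 of 5 libraries lay above every vehicle female (edgeR adjusted p = 0.283), and -0.74 ± 0.58 SE in males (edgeR adjusted p = 0.456).

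Mmp14, the membrane-anchored member that cuts collagen at the cell surface, was by far the steadiest. It was at 34.2 to 57.5 CPM in vehicle (median 49.4), 21.4 to 70.8 CPM at 9 weeks (median 63.4) and 23.8 to 78.9 CPM at 15 weeks (median 48.6). Male 9-week libraries, at 59.8 to 65.6 CPM, all lay above the vehicle males, and the 21.4 CPM of female replicate 5 lay below every vehicle library. The log2 fold change at 9 weeks was 0.36 ± 0.18 SE (edgeR adjusted p = 0.176). Without both libraries that stood apart it was 0.46 (edgeR adjusted p = 0.033). That fit leaves out female replicate 5, the lowest Mmp14 library at 9 weeks, which raises the fold change by construction.

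Of the inhibitors, Timp1 is the secreted, cytokine-inducible one and Timp3 the one that stays bound to the matrix and also blocks Adam17. Timp1 was at 0.563, 0.0811, 0.037, 0.0884 and 0.107 CPM in vehicle females and 1.95, 0.899, 0.0374, 0.587 and 0.709 CPM in vehicle males. At 9 weeks it was at 2.16, 1.98, 0.808, 2.72 and 0 CPM in females and 3.44, 0.917, 2.08, 1.32 and 0.833 CPM in males. Only 5 of the 10 libraries at 9 weeks exceeded the highest vehicle library, though 9 exceeded the vehicle median. Timp1 rose 4.06-fold (log2 fold change 2.02 ± 0.59 SE, edgeR adjusted p = 0.0181). Timp3 was at 3.12 to 32.3 CPM at 9 weeks against 3.78 to 162.9 CPM in vehicle, with a log2 fold change of -0.76 ± 0.42 SE (edgeR adjusted p = 0.239). Both Timp genes lie within a synapsin gene on the opposite strand, Timp1 in Syn1 and Timp3 in Syn3, which held 182 and 747 counts over all 30 libraries.

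**Figure D1:**
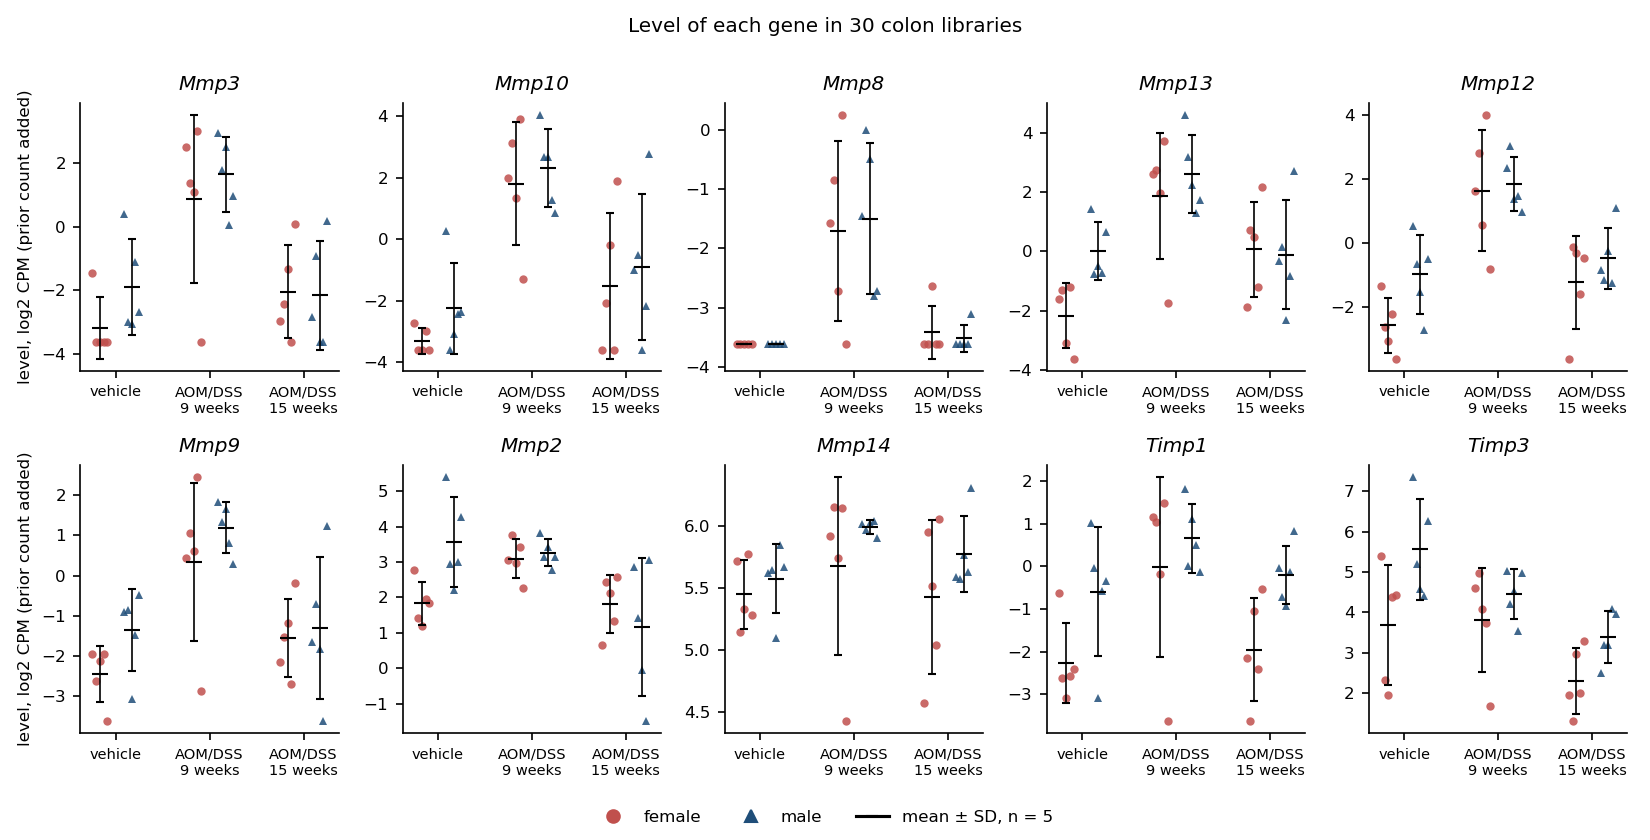
Level of each of the 10 genes in the 30 libraries as log2 CPM with a prior count added, by treatment (x axis) and sex (red circles, females; blue triangles, males), with the mean and SD of each group of 5 in black. Mmp3, Mmp10, Mmp8, Mmp13, Mmp12 and Mmp9 sit highest at 9 weeks, Mmp14 stays between 21.4 and 78.9 CPM throughout, and Timp3 is lowest at 15 weeks.

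At 15 weeks, against the same vehicle mice, only 2 of the 9 tested members passed. Mmp10 was higher (13-fold, log2 fold change 3.70 ± 1.09 SE, edgeR adjusted p = 0.0219), and Timp3 was lower, at 0.228 of the vehicle level (log2 fold change -2.13 ± 0.44 SE, edgeR adjusted p = 0.00266). Over all genes, 17.4% passed, 7.76% higher and 9.66% lower, so that the members' counts of 1 and 1 were near this background. Timp3 was at 41.9, 4.91, 3.78, 20.9 and 21.6 CPM in vehicle females and 162.9, 36.6, 23.8, 21 and 77.2 CPM in vehicle males. At 15 weeks it was at 3.79, 2.42, 7.78, 3.92 and 9.68 CPM in females and 5.58, 9.14, 9.02, 16.9 and 15.6 CPM in males. All 5 males at 15 weeks lay below every vehicle male, and the females overlapped. The fall in Timp3 kept its call in each fit with 1 library left out (log2 fold change -2.28 to -1.78) and without both libraries that stood apart (-1.78, edgeR adjusted p = 0.0036).

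The Mmp10 call at 15 weeks rested on few libraries. Its log2 fold change was 2.50 without male 15 weeks replicate 5 (edgeR adjusted p = 0.112), and the call was also lost without female 15 weeks replicate 5. Mmp13 was at 1.77 ± 0.69 SE (edgeR adjusted p = 0.0726), Mmp12 at 1.20 ± 0.62, Mmp9 at 1.08 ± 0.62, Mmp3 at 0.99 ± 0.91, Timp1 at 0.26 ± 0.61 and Mmp14 at 0.13 ± 0.18 on the log2 scale, and none of these passed. Mmp2 was at -1.02 ± 0.42 SE (edgeR adjusted p = 0.0883). DESeq2 called Mmp13 as well (adjusted p = 0.038).

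Inhibitors other than Timp1 were low at 15 weeks as a group. All 3 further inhibitors tested, Timp2, Timp4 and Reck, a membrane-anchored inhibitor, fell, with log2 fold changes of -1.27 ± 0.31, -1.47 ± 0.47 and -2.56 ± 0.57 SE (edgeR adjusted p = 0.00808, 0.0321 and 0.00489). At 9 weeks Timp2 alone of these fell (-0.96 ± 0.31 SE, edgeR adjusted p = 0.0302). Stromal markers were lower at 15 weeks as well: 8 of 10 smooth muscle markers (median -2.82), 5 of 12 fibroblast markers (median -1.19) and 4 of 8 endothelial markers (median -1.45) fell. The summed level of the fibroblast list ranged from 35.9 to 1257 CPM in vehicle and from 32.6 to 225 CPM at 15 weeks, and no gene of the list was at 0 throughout a state. Its part in the Timp3 result was not tested. With the fibroblast score of each library as a covariate, Timp3 at 15 weeks was at -1.03 (edgeR adjusted p = 0.079), and 5 members, Mmp3, Mmp9, Mmp10, Mmp12 and Mmp13, were higher than in vehicle. Over all genes, fewer passed than without the score, with the counts given in the last section. Fibroblast markers fell with treatment and the list followed Timp3 at an r of 0.70 within groups (0.55 without both libraries that stood apart). This fit therefore cannot separate cell mix from level per cell.

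Between 9 and 15 weeks, a comparison that shares its libraries with both of the above, 3 of the 9 tested members fell and 0 rose, against 4.96% of all genes in either direction, 3.98% lower and 0.978% higher. Here too, Mmp3 had passed the filter mainly through its 9-week libraries. Mmp3 fell by 3.55 ± 0.81 SE on the log2 scale (edgeR adjusted p = 0.0175), Mmp12 fell by 2.90 ± 0.58 SE (edgeR adjusted p = 0.011) and Mmp9 fell by 2.21 ± 0.57 SE (edgeR adjusted p = 0.0303). Every 15-week library lay below the 9-week median of Mmp3 and of Mmp12. Mmp10 (-2.35 ± 0.82 SE, edgeR adjusted p = 0.0882), Mmp13 (-2.08 ± 0.64 SE, edgeR adjusted p = 0.054) and Timp1 (-1.76 ± 0.58 SE, edgeR adjusted p = 0.07) did not pass. The median of the members was -2.08, against -0.02 over all genes. Mmp8 dropped from 96 reads to 3, and in males the 15-week and 9-week libraries did not overlap (exact permutation p = 0.00794, the smallest possible, and p = 0.0873 in females). Mmp9 lost its call in 8 of the 20 fits with 1 library left out, and with the fibroblast score as a covariate 0 members and 0 genes passed. Without female 9 weeks replicate 5, 8 of these 9 members fell, and Mmp8, which then passed the filter through its 9-week libraries alone, fell too. In that fit 2655 genes passed, 1275 of them higher, against 807 with all libraries. This library was set apart for its low levels of the genes that rose at 9 weeks. Leaving it out therefore raises their 9-week level by construction. DESeq2 called 7 of the 9, and it also called more of all genes than edgeR did, with the counts given in the last section.

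**Figure D2:**
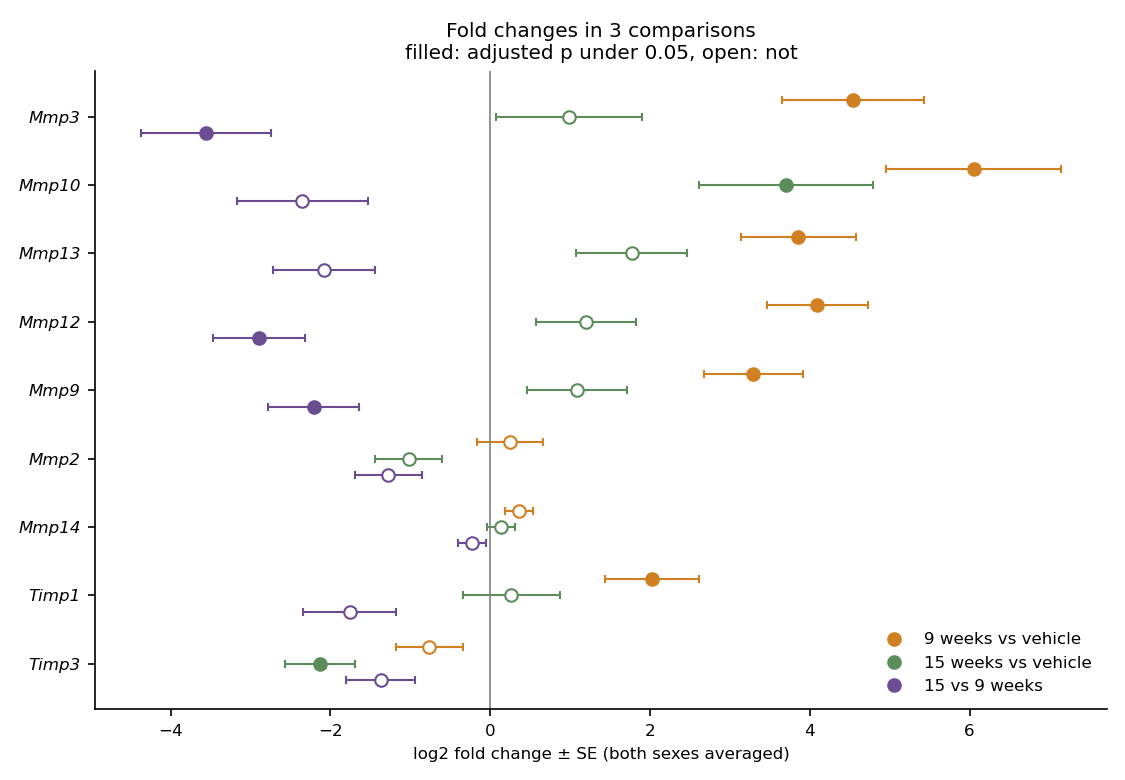
Log2 fold change with its SE (x axis) of the 9 tested genes in AOM/DSS 9 weeks against vehicle (orange), 15 weeks against vehicle (green) and 15 against 9 weeks (purple), averaged over the sexes, with filled points for an edgeR adjusted p under 0.05. The orange points of Mmp3, Mmp10, Mmp13, Mmp12, Mmp9 and Timp1 lie right of 0 and filled, while Timp3 is filled left of 0 at 15 weeks.

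Within each sex the same contrasts were tested with 5 libraries a group. At 9 weeks 4 members were higher in males, Mmp9, Mmp10, Mmp12 and Mmp13, with log2 fold changes of 2.65 to 4.52, and 0 lower, against 10.1% of all genes in either direction, 5.82% higher and 4.27% lower. In females 5 were higher, the same 4 and Mmp3, with log2 fold changes of 3.94 to 7.58, and 0 lower, against 4.19% of all genes in either direction, 3.53% higher and 0.664% lower. As over both sexes, low vehicle counts left little room for a lower call. Mmp3 in males (3.41 ± 1.13 SE, edgeR adjusted p = 0.052) and Timp1 in females (3.02 ± 0.89 SE, edgeR adjusted p = 0.051) just missed the threshold. In males 0 of the 4 calls were kept without vehicle replicate 2, 3, 4 or 5 or without 9 weeks replicate 1, where Mmp8 alone was called. Mmp8 passed the filter in those fits through its 9-week libraries alone and had no vehicle read, so only a higher call was possible. Mmp10 alone was kept without 9 weeks replicate 2. Without 9 weeks replicate 3, Mmp10 and Mmp12 were kept. In females 3 were kept without 9 weeks replicate 4, and Mmp12 alone with the fibroblast score as a covariate or when these groups alone were fitted. Mmp3 in females lay between 5.16 and 9.49 with 1 library left out.

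At 15 weeks, males had lower Mmp2 (-2.07 ± 0.61 SE, edgeR adjusted p = 0.0234) and Timp3 (-2.52 ± 0.63 SE, edgeR adjusted p = 0.0102), and 0 members were higher, against 14.4% of all genes in either direction, 8.31% lower and 6.11% higher. Mmp2 was at 42.1, 7.62, 4.57, 7.91 and 19.4 CPM in vehicle males and at 7.18, 2.61, 0.886, 0.276 and 8.29 CPM in males at 15 weeks, so the groups overlapped. Neither call was left without male vehicle replicate 1, where Mmp2 was at -1.35 (edgeR adjusted p = 0.151) and Timp3 at -1.82 (edgeR adjusted p = 0.0654). In females no member passed at 15 weeks by edgeR or DESeq2, 3 had an unadjusted p under 0.05 (10.9% of all genes did), and 0.117% of all genes were called in that comparison, 0.105% higher and 0.0123% lower. From 9 to 15 weeks edgeR called no member and no gene in either sex, with 5 members in males and 7 in females at an unadjusted p under 0.05, where 13.4% and 12.6% of all genes were. DESeq2 called Mmp12 in females and none in males.

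No member differed between the sexes by edgeR in vehicle mice, at 9 weeks or at 15 weeks. In vehicle mice 5 of 9 had an unadjusted p under 0.05, as did 18.7% of all genes, all 5 higher in males, among them Mmp2 (log2 fold change 2.11 ± 0.61 SE, edgeR adjusted p = 0.0733) and Timp3 (1.79 ± 0.61 SE, edgeR adjusted p = 0.112), and 0.252% of all genes passed after adjustment, 0.215% higher and 0.0369% lower in males. DESeq2 called Mmp2 alone there. With 1 library left out, the difference of Mmp2 lay between 1.38 and 2.44 (edgeR adjusted p from 0.0210 to 0.446). That of Timp3 lay between 1.09 and 2.35 (edgeR adjusted p from 0.0220 to 0.524). The stromal gene Dcn moved with them, at 14.2 to 202.9 CPM in vehicle males and 0.814 to 29.6 CPM in vehicle females. With the fibroblast score as a covariate the Mmp2 difference was -0.23. Mmp2 itself followed the fibroblast list at an r of 0.89 within groups, so this fit cannot separate the gene from the score. The cause of the difference was not tested. At 9 and 15 weeks 0 members had an unadjusted p under 0.05, and DESeq2 called none. Of all genes, 0.0492% passed at 9 weeks, 0.043% higher and 0.00615% lower in males, and 0.221% at 15 weeks, 0.123% higher and 0.0984% lower. The responses of the sexes, tested as interactions, differed for no member by edgeR or DESeq2, and for 0% of all genes at 9 weeks and 0.00615% at 15 weeks, all lower in males. At 9 weeks 2 had an unadjusted p under 0.05 (7.41% of all genes did), Mmp2 (male minus female response -1.98 ± 0.83 SE) and Mmp12 (-2.61 ± 1.20 SE), and at 15 weeks 1 did, Mmp2 (-2.10 ± 0.85 SE), with 7.66% of all genes.

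Levels of different genes were compared per length, as TPM within the same library. In vehicle colon Mmp14 was first with a median of 8.44 TPM, followed by Timp3 at 2.80, Mmp2 at 0.932 and Timp1 at 0.242 TPM, and the other 6 had medians under 0.1 TPM. Mmp14 exceeded Timp3 in 9 of 10 vehicle libraries, and Timp3 exceeded Mmp2 in all 10. Timp1 and Mmp13, next in the order, were less clearly ranked, with Timp1 higher in 6 of 10. At 9 weeks Mmp14 (17.3 TPM), Timp3 (2.88) and Mmp2 (2.27) still led, now followed closely by Mmp10 (1.85), Mmp3 (1.34), Mmp13 (1.21) and Timp1 (1.16 TPM). Mmp2 and Mmp10 exceeded one another in 5 libraries each, and Mmp3 exceeded Mmp13 in 2 of 10 despite its higher median. The share of Mmp14 in the summed TPM of the 8 Mmp genes was 54.0 to 95.1% in vehicle libraries (median 88.3%), 45.0 to 82.4% at 9 weeks (median 65.6%) and 73.6 to 99.6% at 15 weeks (median 90.1%).

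The mix of inhibitors shifted as well. Timp1 stood at a median of 0.0368 of the Timp3 level (TPM) in vehicle libraries, at 0.412 at 9 weeks and at 0.232 at 15 weeks. Summed Mmp TPM without Mmp14 was a median of 0.388 times the summed Timp1 and Timp3 TPM in vehicle (0.233 to 1.004), 1.88 times at 9 weeks (0.886 to 4.96) and 1.19 times at 15 weeks (0.0198 to 9.26). With Mmp14 included, the median ratio was 3.14 in vehicle, 5.87 at 9 weeks and 10.7 at 15 weeks, with overlapping ranges. The median was thus highest at 9 weeks without Mmp14 and highest at 15 weeks with it. These ratios describe RNA, and they are given without a test. They are within-library ratios because a single mitochondrial gene, mt-Nd4l, took 39.2 to 58.1% of the deposited TPM.

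**Figure D3:**
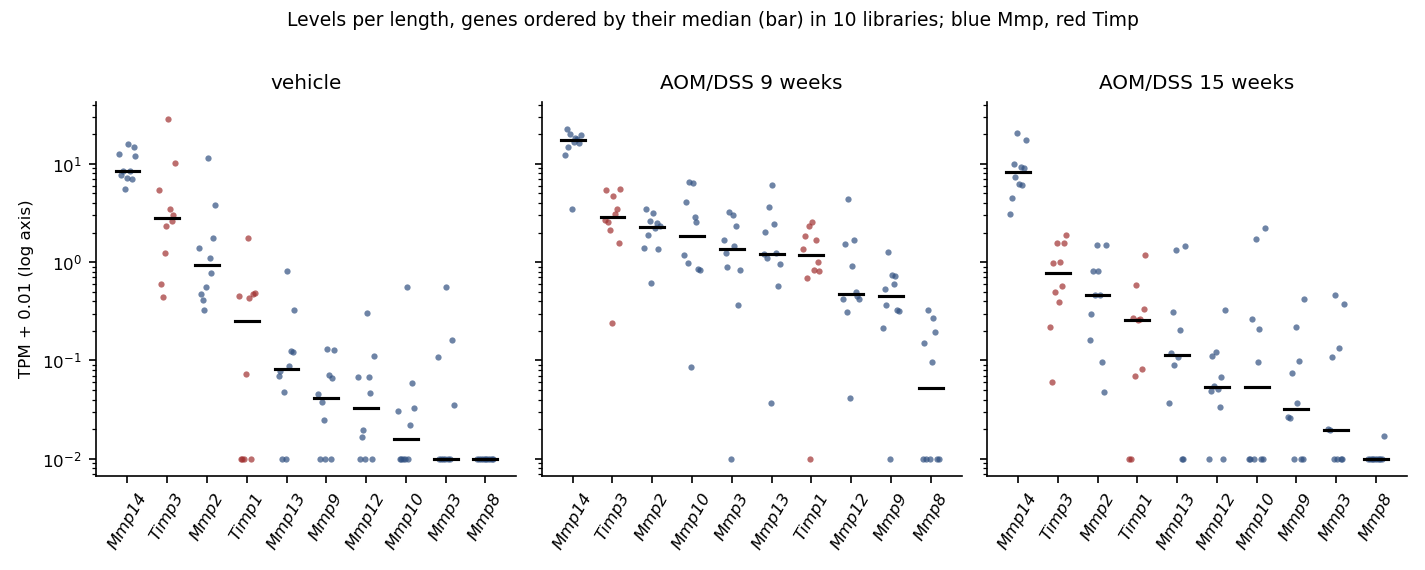
TPM plus 0.01 (y axis, log scale) of each gene in the 10 libraries of vehicle, AOM/DSS 9 weeks and AOM/DSS 15 weeks, ordered by the median (black bar), with Mmp genes in blue and Timp genes in red. Mmp14 leads in all 3 panels at medians of 8.44, 17.3 and 8.15 TPM, and the middle ranks fill up at 9 weeks. TPM serves to rank genes within a panel, and levels are not compared between panels.

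The induced members also moved together from mouse to mouse. Deviations of log2 CPM from the group mean over the 30 libraries gave a Pearson r of 0.90 between Mmp10 and Mmp13, 0.88 between Mmp3 and Mmp10 and 0.83 between Mmp3 and Mmp13, and 0.89, 0.86 and 0.74 without the pair of libraries that stood apart. These 3 are the genes whose promoters are printed above with TGANTCA. Other pairs came near the lowest of these r values only: without the pair of libraries, Mmp9 was at 0.77 with Mmp10 and at 0.73 with Mmp3 (0.79 and 0.81 with all 30). Mmp3 and Mmp10 share stretches of sequence, as given above, and the part of this in their r was not tested. Timp1 with Mmp3 went from 0.80 to 0.62 and Timp3 with Mmp9 from 0.41 to 0.17. The genes of a library share its depth and its cell mix, and the r values are given as descriptions.

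**Figure D4:**
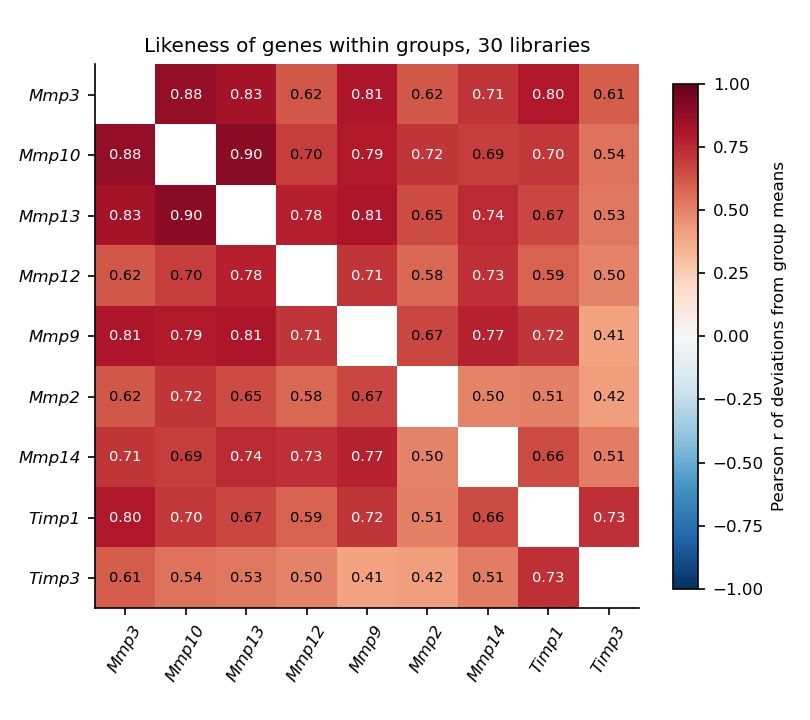
Pearson r between the 9 tested genes, computed on deviations of log2 CPM from the mean of each of the 6 groups over 30 libraries (color scale from -1 to 1, values printed in the cells). Mmp10 and Mmp13 are the closest pair at 0.90, and Timp3 with Mmp9 and with Mmp2 are the most distant, at 0.41 and 0.42.

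High and low values of the members came together in the same mice. Female 9 weeks replicate 4 was the highest of its group for all 6 genes that rose at 9 weeks, female replicate 5 the lowest for all 6, and male 15 weeks replicate 5 the highest of its group for all 6. The neutrophil gene S100a9 stood at 54.8, 0.108 and 8.46 CPM in these 3 libraries, against medians of 8.92 CPM over the 9-week and 0.939 CPM over the 15-week libraries. Il1b, which encodes a known inducer of Mmp genes, stood at 226, 0.43 and 9.01 CPM, against medians of 25.3 and 1.21 CPM. Among the males at 9 weeks the order differed, since replicate 1 was highest for 5 of the 6 genes while replicate 2 held more S100a9 (31.7 against 15.7 CPM) and more Il1b (122.6 against 51.96 CPM). The part of neutrophils was not tested.

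Across all tested genes, the closest companions of each member by the same r differed by gene. Those of Mmp12 were Msr1, Clec7a and Csf1r (0.87, 0.86 and 0.85), which encode macrophage surface receptors. Mmp2 was closest to Loxl2, Plxnd1 and Gpx3 (0.95, 0.94 and 0.94), Mmp3 to Slpi, Mmp10 and S100a9 (0.88, 0.88 and 0.86), and Mmp10 to Mmp13, Lcn2 and Cemip (0.90, 0.90 and 0.88). Mmp13 was closest to Mmp10, Aif1 and F13a1 (0.90, 0.88 and 0.87), Mmp9 to Anxa5, Adam8 and Procr (0.85, 0.84 and 0.84), and Mmp14 to Hoxa10, Msr1 and Ckap4 (0.88, 0.86 and 0.86). Timp1 was closest to Arhgef15, Cmklr1 and Pdgfrb (0.86, 0.85 and 0.84), and Timp3 to Rdx, Adamts9 and Chst15 (0.90, 0.89 and 0.89). Without the pair of libraries these r values lay between 0.71 and 0.96, Mmp3 was closer to Mmp10 (0.86) than to Slpi (0.80), and Timp1 with Arhgef15 was at 0.73. Each marker list was also given a score per library, the mean log2 CPM deviation of its tested genes, which is not the summed CPM used elsewhere. By r with these scores, Mmp2 was closest to fibroblasts (0.89), Mmp12 to macrophages (0.80) and Mmp3 to neutrophils (0.85), and Timp3 ran opposite to colon epithelium (-0.77). Without the pair these were 0.88, 0.72, 0.72 and -0.71, and Mmp3 was then closest to the cytokine inducers (0.76). The macrophage likeness was not particular to Mmp12, since its r lay between 0.68 and 0.80 for all members tested, with Mmp2 and Mmp13 at 0.78. Without the pair, Mmp2 (0.75) exceeded Mmp12 there. Mmp13 and Mmp14 (0.73) were also closest to macrophages, Mmp9 to the cytokine inducers (0.79), and Mmp10 and Timp1 to neutrophils (0.77 and 0.74).

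Other genes of the system give the setting. The chromosome 9 row extends beyond the members over 427 kb, to Mmp7. Along it, Mmp1a, Mmp1b and Mmp27 had 0 counts in all 30 libraries and Mmp20 had 46, which left undetected genes between members that rose. Mmp7, known as matrilysin and expressed by tumor and Paneth cells, rose at 9 weeks (log2 fold change 4.37 ± 0.81 SE, edgeR adjusted p = 0.00034) and was still higher at 15 weeks (3.66 ± 0.79 SE, edgeR adjusted p = 0.00362). At 15 weeks, however, 1 library held much of it, male replicate 5 with 81.9 CPM against a median of 2.59 CPM.

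**Figure D5:**
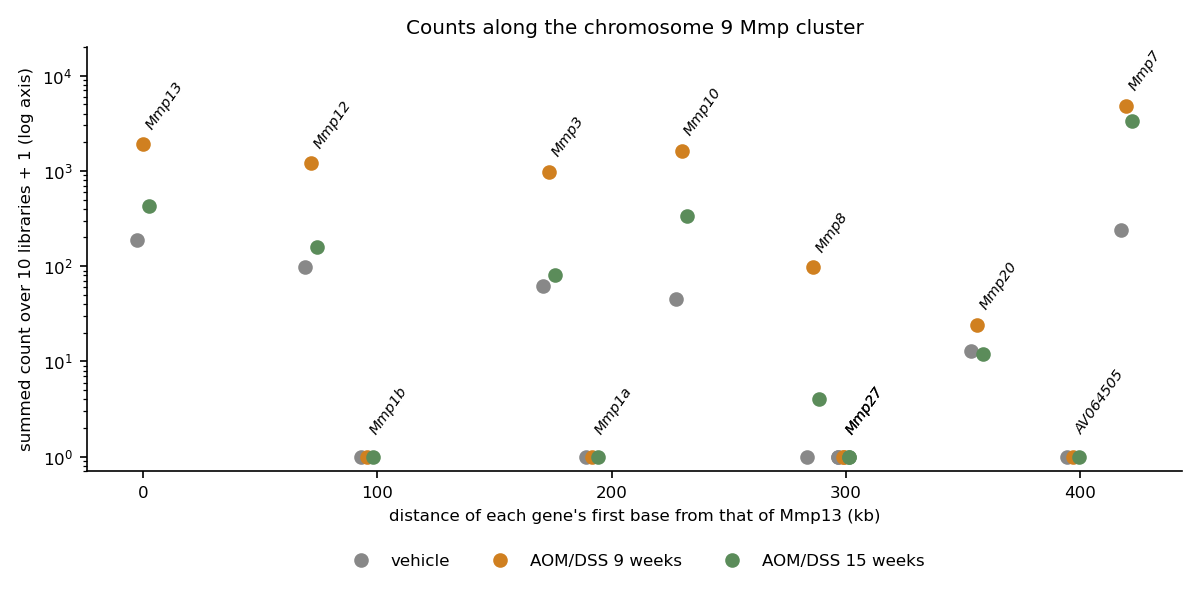
Summed counts plus 1 over the 10 libraries of each state (y axis, log scale) for the genes of the chromosome 9 Mmp row, by the distance of each gene's first base from that of Mmp13 in kb (gray, vehicle; orange, AOM/DSS 9 weeks; green, AOM/DSS 15 weeks). Mmp13, Mmp12, Mmp3, Mmp10, Mmp8 and Mmp7 are highest at 9 weeks, and Mmp1b, Mmp1a and Mmp27 between them are at 0.

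Of the 9 other Mmp genes tested, 3 were higher at 9 weeks and 0 lower: Mmp7, the leukocyte enzyme Mmp25 (2.93 ± 0.65 SE, edgeR adjusted p = 0.00221) and the epithelial Mmp28 (1.04 ± 0.18 SE, edgeR adjusted p = 0.000197). The other 6, Mmp11, Mmp15, Mmp17, Mmp19, Mmp23 and Mmp24, lay between -0.62 and 0.95 on the log2 scale and did not pass. At 15 weeks Mmp7 and Mmp28 (0.95 ± 0.18 SE, edgeR adjusted p = 0.00145) were higher. Of the plasminogen activator system, 3 of the 6 genes tested rose at 9 weeks and 0 fell. Among them, Plat (3.37 ± 0.67 SE) and Plaur (1.92 ± 0.25 SE) were also higher at 15 weeks (2.48 ± 0.66 and 1.05 ± 0.25 SE). They encode tissue plasminogen activator and the urokinase receptor. Of 15 Adam and Adamts genes, 3 rose at 9 weeks, Adam8 (2.16 ± 0.34 SE), Adamts4 (2.15 ± 0.35 SE) and Adam10 (0.42 ± 0.10 SE).

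Cytokines known to induce Mmp genes rose broadly at 9 weeks, with 10 of 13 tested higher, 0 lower and a median log2 fold change of 3.16, led by Il1a (6.97 ± 0.96 SE), Il1b (6.88 ± 0.91 SE), Il17a (6.64 ± 1.20 SE) and Ifng (6.39 ± 0.99 SE). At 15 weeks 4 were higher, Il1b (2.51 ± 0.87 SE), Tnf (1.67 ± 0.35 SE), Areg (0.87 ± 0.21 SE) and Hbegf (0.58 ± 0.17 SE). The AP-1 subunit genes moved little, with Batf (2.24 ± 0.50 SE) and Atf3 (0.57 ± 0.19 SE) higher at 9 weeks and the other 8 of 10, Fos and Jun included, not passing. Of the 20 matrix substrates listed, 1 was higher at 9 weeks, Col18a1 (1.29 ± 0.44 SE), while 10 were lower at 15 weeks, led by Eln (-2.67 ± 0.72 SE), Col3a1 (-1.70 ± 0.55 SE), Col6a3 (-1.54 ± 0.49 SE) and Col6a1 (-1.45 ± 0.46 SE).

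Markers of leukocytes moved with the members at 9 weeks. Of 8 neutrophil markers tested 6 rose, led by S100a8 (8.03 ± 1.21 SE) and S100a9 (7.07 ± 1.12 SE), while the granule gene Elane was at 0 in all 30 libraries. The summed neutrophil list ranged from 13.6 to 202 CPM in vehicle, from 11.6 to 218 CPM at 9 weeks and from 9.87 to 142.6 CPM at 15 weeks. Of 11 macrophage markers 5 rose, led by Fcgr1 (2.07 ± 0.53 SE) and Cd14 (1.41 ± 0.22 SE), and the summed list ranged from 44.5 to 244 CPM in vehicle, 88.8 to 319 CPM at 9 weeks and 62.8 to 227 CPM at 15 weeks. Of 8 T cell markers 7 rose, of 8 B and plasma cell markers 2, of 12 epithelial markers 3 and of 12 fibroblast markers 0. Of 9 markers of Wnt-driven tumors 5 rose and 2 fell at 9 weeks, and 3 were higher and 1 lower at 15 weeks. Of the 3 synapsin genes, 2 were lower at 15 weeks, Syn1 among them, and 0 passed at 9 weeks. The part of these cells in the rise of the Mmp genes was not tested.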

How the data were processed

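RNA from 30 mouse colon samples was sequenced from stranded mRNA libraries as paired reads. The authors trimmed the reads with Trim Galore, aligned them to GRCm38 with STAR and counted reads per gene with featureCounts, and the table of raw counts was deposited as made. FPKM and TPM per gene were deposited by the authors from StringTie, 1 table per sample. Duplicates were kept, and the strand setting of the counting is not given in the sources used here. Groups came from the sample labels.

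Counts were tested with edgeR 4.0.16 in R 4.3.3 (filterByExpr, TMM, quasi-likelihood test) in 1 fit of all 6 groups with no covariate, over 14 comparisons, with Benjamini-Hochberg adjustment over all 16261 genes tested and a threshold of 0.05. The common biological coefficient of variation was 0.319. Log2 CPM used a prior count of 2, and CPM used none. Group spread is between mice, and limits from a count of 0 cover counting error only. The script was tested on simulated data. No 2 replicates were copies of each other. FPKM served only for the limits used by the study (log2 fold change over 0.4 and FPKM over 1), and TPM for ranking genes within a library. Repeated gene lines in the TPM tables (11 to 20 per sample) were summed.

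All 10 members are named, with up to 4 genes of each list that passed with the largest changes, all other Mmp genes and inhibitors tested, and the 3 genes closest to each member. Not every listed gene that passed is reported here. The members and lists were chosen with earlier results of these data known. Alternatives were RLE scaling, no filter, DESeq2 1.42.0, the limits of the study, a replicate block, a fibroblast score as covariate, fits of the compared groups alone and single libraries left out. The fit without both libraries that stood apart was chosen after seeing the data.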

Additional observations from a re-analysis of the deposited data

Results flagged for a closer look

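In 7 of 58 groups of 5 libraries, the highest or lowest library lay further from the others than Dixon's limit of 0.71 allows. The limit is set for about 1 in 20 groups by chance, a rate that does not hold for counts tied at 0. For Mmp3 in vehicle females and for Mmp8 at 15 weeks, every other library of the group was at 0, so any count gave the full ratio of 1. The 7 flags are thus not compared with chance. Values are log2 CPM with a prior count of 2. Mmp3 stood at -1.46 in female vehicle replicate 1 (8 counts, group median -3.62) and at -3.62 in female 9 weeks replicate 5 (0 counts, group median 1.39). Mmp14 stood at 4.43 in the same female 9 weeks replicate 5 (399 counts, group median 5.91) and at 6.30 in male 15 weeks replicate 5 (2304 counts, group median 5.63). Timp1 stood at -0.63 in female vehicle replicate 1 (16 counts, group median -2.56). Mmp8 stood at -2.63 in female 15 weeks replicate 3 on 2 counts and at -3.11 in male 15 weeks replicate 5 on 1 count, with no count in the other libraries of those groups.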

How the results depend on the processing

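Of 999 alternative values for 42 member fold changes, 894 kept their direction and side of the threshold, 60 lost the call, 40 gained it and 5 reversed. At 9 weeks over both sexes, 5 to 8 members were called under every alternative. These counts and those below include Mmp8 where it passed the filter, which it did through its 9-week libraries alone. With no read in vehicle, Mmp8 could only be called higher at 9 weeks. At 15 weeks against vehicle, the call count of 2 became 1 with the limits of the study, 1 with the replicate block and 5 with the fibroblast score, and 1 to 3 with 1 library left out. From 9 to 15 weeks, the count of 3 became 0 with the fibroblast score, 7 with DESeq2 and 9 without both libraries that stood apart, and 2 to 9 with 1 library left out. In males at 9 weeks, 4 became 2 with the limits of the study, and 1 to 5 with 1 library left out, of which 0 to 4 were among the 4, and 0 in 5 fits where Mmp8 alone was called. In females at 9 weeks, 5 became 1 with the fibroblast score and 1 with the compared groups alone, and 3 to 7 with 1 library left out. In males at 15 weeks, the 2 lower calls were lost with the fibroblast score, where 2 other members were called higher. The count of 2 became 0 with the compared groups alone and 1 without both libraries, and 0 to 2 with 1 left out. In females from 9 to 15 weeks, 0 became 1 with DESeq2 and 6 without both libraries, and 0 to 4 with 1 left out. Between the sexes in vehicle, 0 became 1 with DESeq2, and 0 to 3 with 1 left out. Reversed log2 fold changes with the fibroblast score were Mmp2 at 9 weeks (-0.073), Mmp14 from 9 to 15 weeks (0.13), and Mmp2 between the sexes in vehicle (-0.23) and in the sexes' 9-week response (0.17). Timp1 at 15 weeks lay between -0.040, without female 15 weeks replicate 5, and 0.91 with 1 library left out. The causes were not tested.

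Same-numbered replicates did not pair: their deviations correlated at a median r of -0.03 over 75 pairs, with 12 over 0.1, and 0 libraries correlated best with their own number. With the replicate block, 6 members were called at 9 weeks, 1 at 15 weeks and 4 from 9 to 15 weeks, and Mmp10 at 15 weeks and Mmp13 in males at 9 weeks lost their calls. Over all genes, calls at 9 weeks went from 2634 to 1348 with the limits of the study. At 15 weeks they went from 2832 to 1195 with these limits, 1788 with the fibroblast score and 1670 with the compared groups alone. From 9 to 15 weeks they went from 807 to 378 with the limits, 427 without the filter, 1403 with DESeq2, 2981 without both libraries and 0 with the fibroblast score. Mmp3, Mmp8 and Timp1 rested on few counts per library, which limits the precision of their folds.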
